A study of Mus musculus with 6 samples.

Results

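Cytochrome P450 enzymes of families 1, 2 and 3 are the haem-containing monooxygenases with which the liver oxidises drugs, toxins, steroids and fatty acids. The genes examined here were all rows of the deposited gene table whose symbol begins with Cyp1, Cyp2 or Cyp3 and a letter, apart from Cyp1a2 and Cyp2e1, which were left out by the same rule. It gave 51 genes of the 15953 in the table: 4 of the Cyp2a subfamily, 3 of Cyp2b, 14 of Cyp2c, 8 of Cyp2d, 5 of Cyp2j, 8 of Cyp3a and 9 of smaller subfamilies (Cyp1a1, Cyp1b1, Cyp2ab1, Cyp2f2, Cyp2g1, Cyp2r1, Cyp2s1, Cyp2t4 and Cyp2u1).

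Liver RNA was sequenced from 3 wild type mice and from 3 mice labelled Cgref1 knockout (Cgref1 KO), all C57BL/6. The labels name no other allele, no treatment, no age and no sex, and they give the tissue as liver and the cell type as hepatocytes. They call the samples of a group biological replicates and say no more of their origin, so p-values measure only the spread between these samples. Transcripts of the 4 Y-linked genes checked were counted in every library, with summed levels of 131 to 173 CPM (counts scaled to the library's TMM-adjusted total).

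Microsomal P450 enzymes take electrons from NADPH through the reductase encoded by Por, with cytochrome b5 as a second donor for some reactions, and each needs a haem group. Many of their genes are switched on by ligand-activated receptors: AhR for the Cyp1 genes, and the nuclear receptors CAR (Nr1i3) and PXR (Nr1i2) for Cyp2b, Cyp2c and Cyp3a genes. In rodents, the pulse pattern of growth hormone, through STAT5 and BCL6, also sets which members are male- or female-biased. The subfamilies lie in clusters of gene copies, and the copies can be so alike that short reads cannot always be placed.

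Library totals ran from 17627734 to 18366443 estimated counts. Cgref1 itself, near the detection limit, had counts of 7, 7 and 19 in replicates 1 to 3 of the wild type and of 7, 12 and 10 in those of the knockout, so the genotype rests on the labels and the second group is called knockout-labelled. All values below are listed in that order of libraries. Hepatocyte markers such as Alb were abundant in all libraries (9 of 10 listed genes were in the table, at 90158 to 120056 CPM in sum), and markers of other liver cells were present beside the hepatocyte label: 10 Kupffer cell genes summed to 283 to 313 CPM in the wild type group against 354 to 382 in the knockout-labelled group, and 10 stellate cell genes to 269 to 359 against 226 to 272 CPM. The part of these cells in the P450 values was not tested. Of 24 intestinal epithelium markers, 23 were in the table, with sums of 212 to 254 CPM against 193 to 215 CPM. The 18 of them that lay below the count filter had together 179, 18 and 307 counts in wild type libraries against 8, 8 and 13, so wild type replicates 1 and 3 stood apart. In the same order, 3, 10 and 2 of these 18 were at 0, against 16, 16 and 15. Results were therefore also computed without both of those libraries. In whole tissue, fewer cells of a type and less RNA per cell cannot be told apart.

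Upstream sequences are shown for pairs or members on which the results below turn, to let near-copies and shared elements be seen. They are the 150 bases before the annotated start, from RefSeq on GRCm38.p6, written 5′ to 3′ on the strand of the gene, and none overlaps the gene's own span in the deposited table. RefSeq promoters were found for 44 of the 51 genes. Cyp2a4, a steroid hydroxylase gene, and Cyp2a5, a coumarin hydroxylase gene, both lie on chromosome 7, with Cyp2g1 between them, and over the 250 bases before their starts 245 were identical, with 4 mismatches. The capitals in the first pair mark the bases that differ or have no partner. The windows are chr7:26307042-26307191 for Cyp2a4 and chr7:26835189-26835338 for Cyp2a5, both on the plus strand.
Cyp2a4: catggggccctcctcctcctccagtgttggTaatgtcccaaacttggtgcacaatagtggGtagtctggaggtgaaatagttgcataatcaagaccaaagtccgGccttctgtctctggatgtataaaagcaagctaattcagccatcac
Cyp2a5: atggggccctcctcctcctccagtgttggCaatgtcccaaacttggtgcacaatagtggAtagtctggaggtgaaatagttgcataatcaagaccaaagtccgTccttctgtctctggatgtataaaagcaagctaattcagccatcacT

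In the next sequences the capitals mark matches to 5 short motifs, searched on both strands in the 250 bases before the start. These were the TATA box (TATAAA), the C/EBP motif (TTGCNNAA), a core of the HNF4 site (CAAAGTCC), the STAT5 motif (TTCNNNGAA) and the core of the AhR response element (GCGTG). Cyp2d9 and Cyp2d40 come from the Cyp2d cluster, whose tested members all had positive fold changes. Aligned over 250 bases, the 2 had 150 identical positions, 37 mismatches and 126 gap columns. The TTTATA match lay 28 to 23 bases before the start in Cyp2d9 and 91 to 86 bases before it in Cyp2d40. Cyp2c70 had the largest positive fold change among Cyp2c genes above 10 TPM (transcript abundance per length and library), Cyp3a11 was the most abundant member, and Cyp2b10 is a standard CAR target. The windows are chr15:82452227-82452376 (plus) for Cyp2d9, chr15:82764123-82764272 (minus) for Cyp2d40, chr19:40187287-40187436 (minus) for Cyp2c70, chr5:145879855-145880004 (minus) for Cyp3a11 and chr7:25897508-25897657 (plus) for Cyp2b10.
Cyp2d9: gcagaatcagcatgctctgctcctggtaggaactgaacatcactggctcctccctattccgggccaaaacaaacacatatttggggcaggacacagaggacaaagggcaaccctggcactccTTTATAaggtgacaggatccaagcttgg
Cyp2d40: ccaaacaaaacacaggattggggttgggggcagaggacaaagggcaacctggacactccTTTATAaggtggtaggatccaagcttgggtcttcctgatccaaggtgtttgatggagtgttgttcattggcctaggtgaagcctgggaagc
Cyp2c70: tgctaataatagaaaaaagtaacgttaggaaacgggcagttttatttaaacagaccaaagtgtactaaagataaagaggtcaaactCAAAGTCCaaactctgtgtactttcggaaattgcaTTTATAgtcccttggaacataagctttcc
Cyp3a11: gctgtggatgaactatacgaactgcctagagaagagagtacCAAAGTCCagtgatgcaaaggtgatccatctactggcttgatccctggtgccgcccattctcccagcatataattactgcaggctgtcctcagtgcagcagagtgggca
Cyp2b10: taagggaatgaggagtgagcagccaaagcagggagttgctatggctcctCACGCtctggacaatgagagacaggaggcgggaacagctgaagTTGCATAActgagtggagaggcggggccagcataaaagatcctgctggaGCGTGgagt

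Across the 44 member promoters, TATAAA was found in 21 (47.7%, against 12.4% of all 32851 RefSeq promoters), TTGCNNAA in 11 (25.0% against 9.56%) and CAAAGTCC in 11 (25.0% against 1.20%). GCGTG was found in 7 (15.9% against 28.2%), among them those of Cyp1a1 and Cyp1b1. TTCNNNGAA was in none of these windows and in 7.02% of all. The HNF4 core lay in the promoters of Cyp2a4, Cyp2a5, Cyp2c40, Cyp2c65, Cyp2c67, Cyp2c68, Cyp2c69, Cyp2c70, Cyp3a11, Cyp3a41a and Cyp3a41b. Neighbouring copies share much of their sequence and are not independent, and a match of letters does not show that a factor binds.

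A few members supplied most P450 transcripts. On the TPM scale, which is per length and allows genes to be compared, the 51 members summed to 16850, 14451 and 14331 TPM in wild type and 16845, 13303 and 13101 TPM in knockout-labelled libraries, or 1.31% to 1.69% of all transcripts. Cyp3a11 alone held 21.8% of the mean member sum, the 5 highest genes 59.2% and the 10 highest 82.6%. By mean level, 5 members stood at 1000 TPM or more, 13 at 100 to 1000, 9 at 10 to 100, 9 at 1 to 10 and 15 below 1 TPM.

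The order of the leading genes was nearly the same in each library. Cyp3a11, the main drug-oxidising Cyp3a gene of mouse liver, was first in all 6 with 2453 to 4567 TPM. Cyp2c29, whose enzyme forms arachidonic acid epoxides, had 1323 to 2462 TPM, and Cyp2a5 had 1256 to 2264 TPM. Cyp2c29 was second in all wild type libraries and in knockout-labelled replicate 3, whereas Cyp2a5 was second in knockout-labelled replicates 1 and 2. Cyp2f2, known for the activation of naphthalene, followed with 998 to 1205 TPM, and Cyp2d9, a male-biased steroid hydroxylase gene, with 743 to 1321 TPM. Cyp2f2 ranked above Cyp2d9 in all 3 wild type libraries and below it in all 3 knockout-labelled libraries, an order that was not tested. Over libraries, neighbours in this order had overlapping ranges, except that the lowest value of Cyp2a5 lay above the highest of Cyp2f2.

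Within subfamilies, the most abundant pairs on the same scale were Cyp2a5 and Cyp2a12 (mean 534 TPM), Cyp2b9 (12.8 TPM) and Cyp2b10 (11.1 TPM), Cyp2c29 and Cyp2c50 (857 TPM), Cyp2d9 and Cyp2d26 (810.4 TPM), Cyp2j5 (295 TPM) and Cyp2j6 (29.1 TPM), Cyp3a11 and Cyp3a25 (384 TPM), and, outside these, Cyp2f2 and Cyp2r1 (16.7 TPM), the latter a vitamin D hydroxylase gene. The Cyp1 genes were near the floor: Cyp1a1, the classical AhR target, averaged 0.952 TPM and Cyp1b1 0.175 TPM. Members below the count filter were Cyp2ab1, Cyp2b13, Cyp2c65, Cyp2d11, Cyp2d34, Cyp2j8, Cyp2j13, Cyp2t4, Cyp3a41b, Cyp3a44 and Cyp3a57, none of which averaged above 0.408 TPM.

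**Figure D1:**
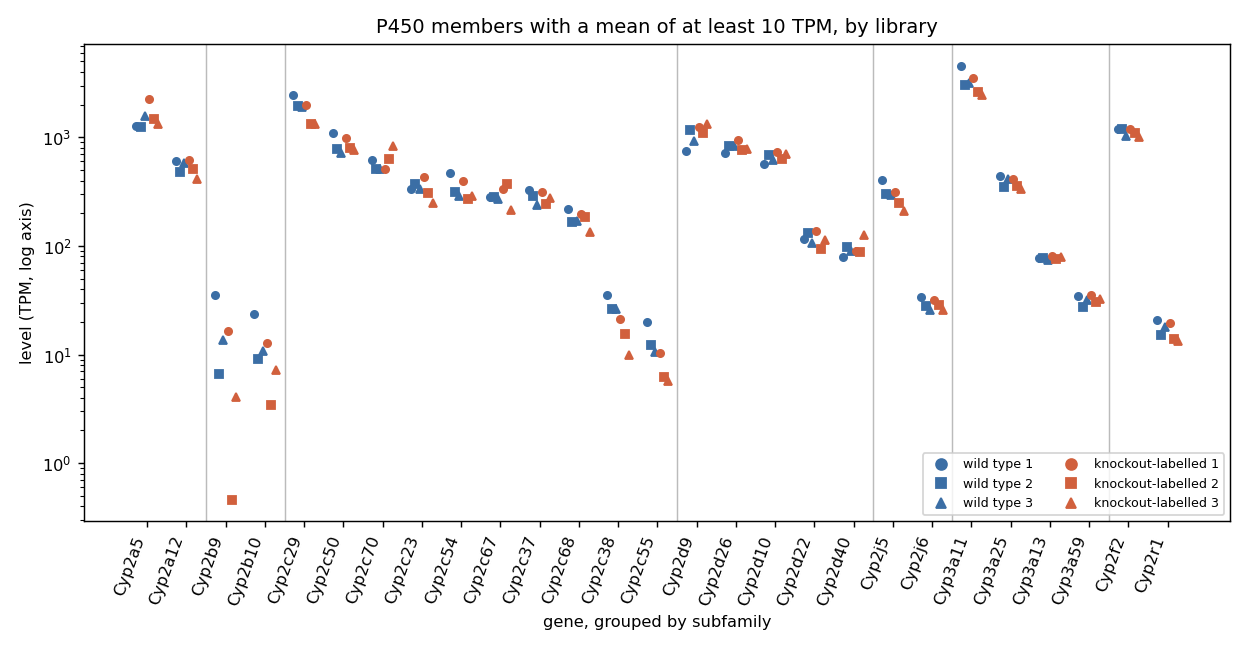
Level in TPM (log axis) of the 27 members with a mean of at least 10 TPM, grouped by subfamily; each point is 1 library, blue for wild type and orange for knockout-labelled, with shapes for replicates 1 to 3. Cyp3a11 is highest in every library, and Cyp2b9 spans 0.460 to 35.4 TPM while most abundant members stay within a narrow band.

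The main comparison asked how hepatic transcript levels differ between the wild type and knockout-labelled groups. Of the 51 members, 40 had enough counts to be tested, and none passed the threshold in edgeR (quasi-likelihood test, p adjusted by Benjamini and Hochberg over all 12033 genes tested; 0 higher, 0 lower, smallest adjusted p 0.844). Over all genes, 0.00831% were called higher and 0% lower, so the absence of called members matches the background. DESeq2 also called 0 members, with a smallest adjusted p of 0.0795 for Cyp2c38, and 0.156% of its 12841 genes higher and 0.101% lower. In the authors' deposited table, 0 of the 51 members had a q-value under 0.05, and the smallest was 0.0975. Limma-voom called 0 members.

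At an unadjusted edgeR p under 0.05, 5 of the 40 tested members were higher, against 2.95% of all genes tested. At the same cut 2 of the 40 were lower, against 2.2% of all genes tested. The CPM ranges of the groups did not overlap for 7 of the 40 with higher knockout-labelled values, against 6.19% of all genes tested. With lower values this held for 1 of the 40, against 4.63% of all genes tested. Positive log2 fold changes were seen in 24 tested members and negative ones in 16, and their median was 0.04 against -0.0022 for all genes. The sign of this median depended on the scaling: it was -0.04 on library totals and -0.10 on log2(TPM + 1), where 17 and 14 members were positive and the median of all genes was itself -0.08 and -0.11. The median standard error (SE) of a member was 0.18 on the log2 scale, 28 of the 40 had an SE of at most 0.25, and the largest was 1.25, for Cyp2b9. The 29 genes of other P450 families, 25 of them tested, had a median log2 fold change of 0.03.

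**Figure D2:**
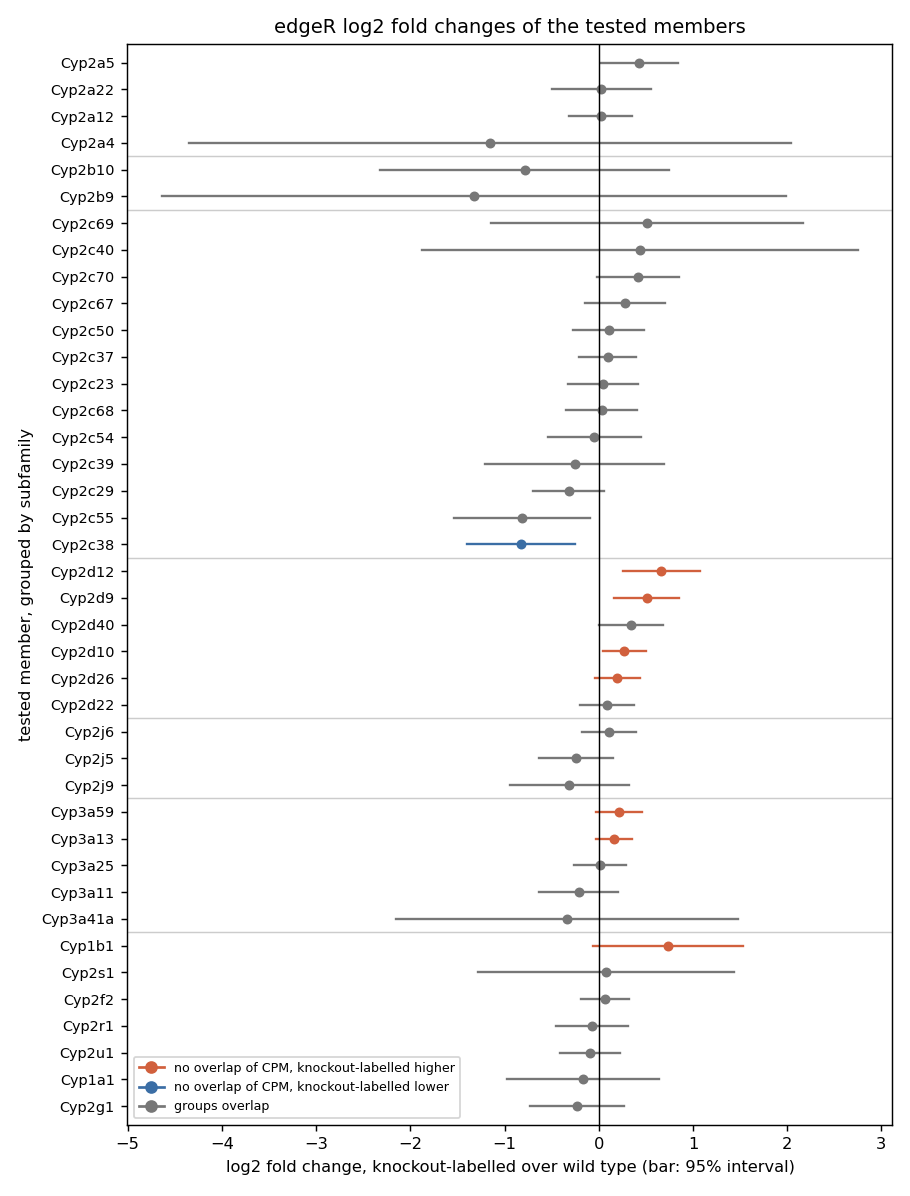
Log2 fold change (knockout-labelled over wild type, edgeR) of the 40 tested members with bars for the 95% confidence interval, grouped by subfamily; orange and blue mark members whose CPM ranges do not overlap between groups. The 6 Cyp2d genes all lie to the right of 0, Cyp2c38 and Cyp2c55 lie to the left with intervals that leave out 0, and Cyp2b9, Cyp2a4, Cyp2c40 and Cyp2c69 have the widest bars among members above 1 TPM.

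Cyp2d genes encode enzymes of the subfamily to which the human drug-metabolising CYP2D6 belongs. All 6 tested members had positive log2 fold changes (median 0.31), and 4 of them (Cyp2d12, Cyp2d9, Cyp2d10 and Cyp2d40) had an unadjusted p under 0.05. At that cut 2.95% of all genes tested were higher, and none of the 6 passed after adjustment. All 6 had fractional counts, which can arise when reads are divided among genes. From 6.1% (Cyp2d22) to 39.8% (Cyp2d10) of the short windows of their transcripts recur in other P450 transcripts. The 6 signs may therefore not be independent. Positive values were 5 of the 6 on both TPM scales, on FPKM, without replicate 1 of the knockout-labelled group and with replicate 2 as the sole wild type library. The cluster lies on chromosome 15.

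Cyp2d9, at chr15:82452377-82456827 on the plus strand, had 798, 1221 and 962 CPM in wild type and 1380.0, 1326 and 1529.6 CPM in knockout-labelled libraries. All 3 knockout-labelled values lay above the highest wild type value, and wild type replicate 1 was the lowest. The group means were 993 ± 213 and 1412 ± 106 CPM (SD, n = 3), the log2 fold change was 0.51 (SE 0.15), and the edgeR adjusted p was 0.850. Without wild type replicates 1 and 3 the log2 fold change was 0.20.

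Cyp2d12, at chr15:82555044-82559413, was a low member with 6.07, 7.23 and 6.82 CPM in wild type and 8.34, 10.6 and 12.9 CPM in knockout-labelled libraries. Again the groups did not overlap, in CPM or in TPM, and its log2 fold change of 0.66 (SE 0.18) came with the smallest adjusted edgeR p of all members, 0.844. Cyp2d10, at chr15:82402846-82407216, had 597, 694 and 629 CPM against 789, 735 and 797 CPM, and its log2 fold change was 0.27 (SE 0.10). It had a narrow spread, and its groups did not overlap in CPM. Cyp2d26, at chr15:82790107-82794452, had 766, 862 and 860.1 CPM against 1039.6, 919 and 895 CPM, without overlap in CPM, and a log2 fold change of 0.20 (SE 0.11), which was 0.13 without knockout-labelled replicate 1. In TPM the groups of Cyp2d9, Cyp2d10 and Cyp2d26 overlapped, since knockout-labelled replicate 2 (1101, 626 and 767 TPM) lay below wild type replicate 2 (1168, 681 and 829 TPM). For Cyp2d26, knockout-labelled replicates 2 and 3 (767 and 777 TPM) both lay below wild type replicates 2 and 3 (829 and 831 TPM).

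Cyp2d40, at chr15:82759833-82764122, had 53.2, 63.9 and 58.8 CPM in wild type and 63.3, 66.3 and 93.1 CPM in knockout-labelled libraries. Its groups overlapped, and knockout-labelled replicate 3 was well above the others: the log2 fold change of 0.34 (SE 0.15) was 0.15 without that library. Cyp2d22 had the smallest difference of the subfamily, with 218 ± 22.0 and 231 ± 35.0 CPM (SD, n = 3). The untested Cyp2d11 had 4, 6 and 3 counts against 6, 14 and 8, and Cyp2d34 had 7, 4 and 8 against 4, 3 and 11. Summed over the 8 genes, Cyp2d transcripts came to 2234, 2913 and 2582 TPM in wild type and 3149, 2686 and 3060.0 TPM in knockout-labelled libraries, with overlap.

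The Cyp2c genes, many of which encode epoxygenases of arachidonic acid, did not share a direction: 8 of the 13 tested had positive and 5 negative values, and their median was 0.05. None was called. An unadjusted edgeR p under 0.05 was seen for 2, both with lower values, where 2.2% of all genes were lower at that cut. The groups of 1 of these 2 did not overlap in CPM, as was so for 4.63% of all genes with lower values. The subfamily spans 1146 kb of chromosome 19 from the start of Cyp2c55 to that of Cyp2c70, with Cyp2c23 farther away. Read along the chromosome, the tested genes at the first end (Cyp2c55, Cyp2c29, Cyp2c38 and Cyp2c39) all had negative values, from -0.26 to -0.83. Of the 9 that follow, 8 were positive, and the exception was Cyp2c54 (-0.05). This order was noticed after the values were seen and was not tested. The positive values of Cyp2c68 (0.03), Cyp2c23 (0.05), Cyp2c37 (0.09), Cyp2c50 (0.10), Cyp2c40 (0.44) and Cyp2c69 (0.51) were each smaller than their SE (0.13 to 0.88). So were, in size, the negative values of Cyp2c39 (-0.26, SE 0.42) and Cyp2c54 (-0.05, SE 0.21). On log2(TPM + 1), only 4 of the 13 were positive. Positive genes were also 4 without wild type replicate 3, but 10 without wild type replicate 1.

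Cyp2c38, at chr19:39389556-39463089 on the minus strand, encodes an epoxygenase and had 45.6, 34.2 and 34.0 CPM in wild type and 28.2, 21.7 and 14.2 CPM in knockout-labelled libraries. It was the 1 member whose knockout-labelled CPM values all lay below the wild type values. The means were 38.0 ± 6.66 and 21.4 ± 6.98 CPM (SD, n = 3), and the log2 fold change was -0.83 (95% confidence interval -1.40 to -0.26) with an edgeR adjusted p of 0.856. It was -0.69 without wild type replicates 1 and 3.

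Cyp2c55, at chr19:39006938-39042687, is inducible in liver and is also known from the large intestine. It had 25.9, 15.6 and 13.4 CPM in wild type and 14.1, 9.01 and 8.04 CPM in knockout-labelled libraries. Knockout-labelled replicate 1 lay above wild type replicate 3 in CPM, so the groups overlapped on that scale. In TPM they did not, with 19.8, 12.24 and 10.54 against 10.35, 6.20 and 5.72 TPM. The median of all genes was itself negative on the TPM scale. The log2 fold change of Cyp2c55 was -0.82 (SE 0.31). Its neighbour Cyp2c65, also an intestinal gene, had counts of 2, 0 and 4 in the wild type group and of 0 in each knockout-labelled library, a level that allows up to 3 counts in each of them. Those counts lay in wild type replicates 1 and 3, the libraries with the most intestinal marker counts. The part of intestinal RNA in the Cyp2c55 value was not tested; without these libraries its log2 fold change was -0.60, and it was -0.49 without wild type replicate 1 alone.

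Cyp2c29, at chr19:39229354-39330713, had 2873, 2212 and 2130.0 CPM in wild type and 2372, 1732 and 1676 CPM in knockout-labelled libraries. Its groups overlapped through knockout-labelled replicate 1. The log2 fold change of -0.32 (SE 0.17) was -0.18 without wild type replicate 1 and -0.50 without that knockout-labelled library. Cyp2c50, at chr19:40089679-40113955, had 1312, 921 and 841 CPM against 1231, 1070.0 and 1002 CPM, with a log2 fold change of 0.10 (SE 0.17). Wild type replicate 1 was highest for both genes.

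Cyp2c70, at chr19:40153361-40187286 on the minus strand, encodes the hydroxylase with which mice make muricholic acids, their distinctive bile acids. It had 682, 546 and 549.7 CPM in wild type and 583, 786 and 1005 CPM in knockout-labelled libraries. Knockout-labelled replicate 1 lay among the wild type values, whereas the other 2 lay above all of them. The log2 fold change was 0.42 (SE 0.19), or 0.21 without knockout-labelled replicate 3. No 50-base stretch of its transcript recurs in another P450 transcript.

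**Figure D3:**
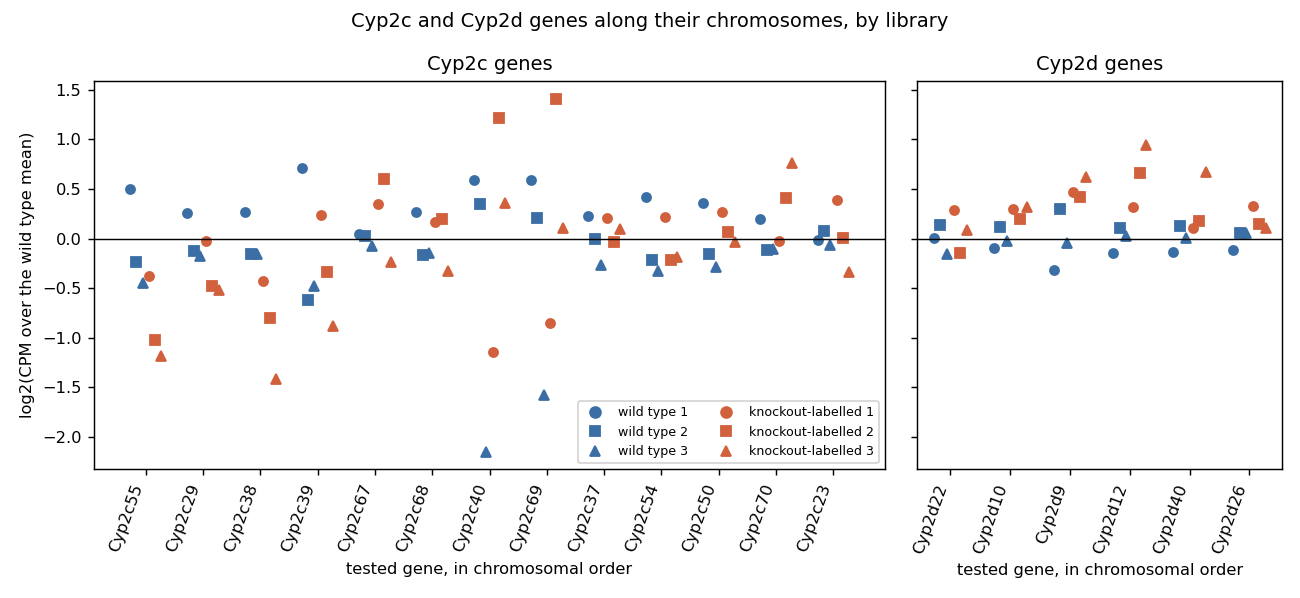
Log2 ratio of CPM to the wild type mean for each tested Cyp2c gene (left) and Cyp2d gene (right), in chromosomal order at even spacing; each point is 1 library, blue for wild type and orange for knockout-labelled. Orange points lie mostly below 0 for Cyp2c55, Cyp2c29 and Cyp2c38 and mostly above 0 for the Cyp2d genes, while Cyp2c40 and Cyp2c69 scatter widely within both groups.

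In the Cyp2a cluster of chromosome 7, the abundant Cyp2a5 and its low near-copy Cyp2a4 had log2 fold changes of opposite sign (0.43 and -1.15), and neither passed the test. Cyp2a5, at chr7:26835339-26843264, had 1427, 1369.7 and 1699 CPM in wild type and 2623, 1846 and 1595 CPM in knockout-labelled libraries. Its SE was 0.18 (unadjusted p 0.0415, edgeR adjusted p 0.944), and without the high knockout-labelled replicate 1 its log2 fold change was 0.20. Cyp2a12, at chr7:27029090-27036818 and known to hydroxylate steroids and bile acids, had 650.5, 509.7 and 611 CPM against 699, 618 and 484 CPM, with full overlap and a log2 fold change of 0.02 (SE 0.15). Its sign was negative under 4 of the alternative scales.

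Cyp2a4 and Cyp2a5 share their upstream sequence almost base for base, as printed above, yet their levels were far apart. Cyp2a4 made up 0.559%, 0.1097% and 0.426% of the summed TPM of the pair in wild type libraries and 0.2502%, 0.0252% and 0.0325% in knockout-labelled libraries. In CPM it had 8.003, 1.49 and 7.26 against 6.59, 0.465 and 0.496, so that wild type replicates 1 and 3 and knockout-labelled replicate 1 were high and the other 3 low. As 38.0% of the 50-base windows of its transcript recur in other P450 transcripts, its level is uncertain.

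The ratio of Cyp2c29 to Cyp2a5 in TPM was 1.93, 1.55 and 1.20 in wild type libraries and 0.868, 0.900 and 1.01 in knockout-labelled libraries. The groups did not overlap. This pair was chosen after the values were seen, and its ratio was not tested.

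Cyp2b genes are the classical CAR targets, and both tested members had negative values with wide errors. Cyp2b10, at chr7:25897658-25926624, had 29.0, 10.9 and 12.8 CPM in wild type and 16.3, 4.77 and 9.53 CPM in knockout-labelled libraries, with overlap and a log2 fold change of -0.79 (SE 0.60). Leaving out 1 library gave -0.23 (wild type replicate 1) to -1.29 (knockout-labelled replicate 1). Cyp2b9, at chr7:26173335-26210661 and female-biased in adult mice, had 43.99, 8.08 and 16.3 CPM against 21.3, 0.639 and 5.40 CPM. The highest library exceeded the lowest 68.8-fold, and the log2 fold change of -1.32 (SE 1.25) was smaller than the within-group SD of 1.92. Leaving out the same libraries gave -0.43 and -2.90. Without wild type replicates 1 and 3 it was 0.15 for Cyp2b9 and -0.11 for Cyp2b10. The related Cyp2b13, with counts of 23, 2 and 7 against 10, 2 and 6, was highest in the same library.

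Cyp2b9 and Cyp2a4 belonged to 8 tested members whose within-group SD of log2 CPM lay above the 95th percentile of all tested genes; the others were Cyp2b10, Cyp2c39, Cyp2c40, Cyp2c69, Cyp2s1 and Cyp3a41a. Of these, Cyp2c39, Cyp2c69, Cyp2s1 and Cyp3a41a averaged 1.56, 1.79, 0.517 and 0.672 TPM. Cyp2c40 had 12.0, 10.1 and 1.80 CPM in wild type and 3.61, 18.6 and 10.2 CPM in knockout-labelled libraries. Its neighbour Cyp2c69 had 2.70, 2.07 and 0.600 against 0.991, 4.77 and 1.93 CPM. Both were lowest in replicate 3 of the wild type and replicate 1 of the knockout-labelled group, and highest in knockout-labelled replicate 2, where Cyp2b9 and Cyp2a4 were lowest. The 2 genes share transcript sequence, 42.1% of the windows of Cyp2c40 recurring in Cyp2c69 and 46.3% of those of Cyp2c69 in Cyp2c40, so the 2 values are not independent. Counting all other P450 transcripts, the shares were 72.1% and 54.8%.

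**Figure D4:**
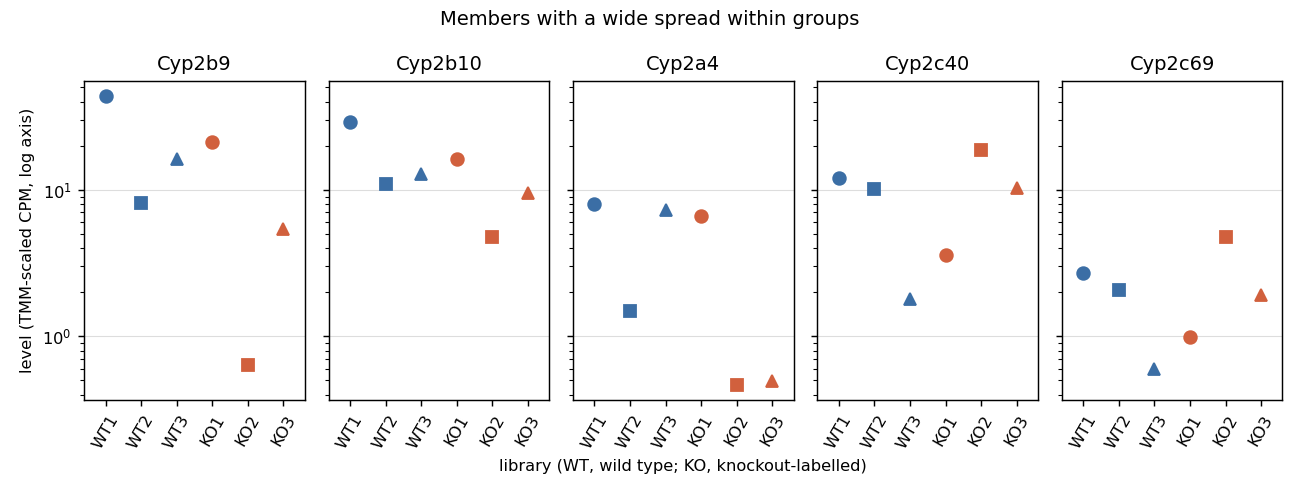
CPM (log axis, TMM-scaled) by library for 5 members with a wide spread within groups; blue is wild type, orange is knockout-labelled. Cyp2b9 and Cyp2a4 are lowest in knockout-labelled replicate 2, at 0.639 and 0.465 CPM, whereas Cyp2c40 and Cyp2c69 are highest there, at 18.6 and 4.77 CPM.

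Members known to be female-biased (8 of 9 listed were in the table) were tested in 5 cases, Cyp2a4, Cyp2b9, Cyp2c40, Cyp2c69 and Cyp3a41a, with 2 positive and 3 negative values and none called. The direction of their median, -0.34, turned to 0.26 without knockout-labelled replicate 3, and to 0.15 with replicate 2 as the sole wild type library. The median of -0.34 was the value of Cyp3a41a itself. That gene had 0 counts in knockout-labelled replicate 3, where its near-identical copy Cyp3a41b had 10, so this median is uncertain too. Cyp2d9 was the 1 listed male-biased member. Of 10 growth hormone regulators tested, 3 were positive and 7 negative, with a median of -0.04 and none called. The median was 0.03 without wild type replicate 2 and 0.02 without knockout-labelled replicate 3. The smallest p-values were those of Jak2, the kinase of the growth hormone receptor (log2 fold change -0.19), Stat5a (0.29) and the receptor gene Ghr (0.06). Singled out after the values were seen, Bcl6, a repressor in this pathway, had 6.24, 14.9 and 60.9 CPM in wild type and 6.65, 9.94 and 71.2 CPM in knockout-labelled libraries. Cish, a STAT5 target, had 24.3, 51.2 and 4.64 CPM against 26.7, 39.4 and 2.48 CPM. Both replicates numbered 3 thus had high Bcl6 and low Cish, and their relation to the P450 levels was not tested.

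The Cyp3a genes, on chromosome 5, had 3 positive and 2 negative values among 5 tested, and the sign of their median, 0.02, was negative on library totals, TPM and FPKM. Cyp3a11, at chr5:145854607-145879854 on the minus strand, is a standard PXR target and had 6236, 4048 and 4219 CPM in wild type and 4911, 3988 and 3607 CPM in knockout-labelled libraries. The groups overlapped, wild type replicate 1 was far above the rest, and the log2 fold change of -0.21 (SE 0.19) was 0.0045 without that library and -0.35 without knockout-labelled replicate 1. Cyp3a25, at chr5:145977194-146009644, had 516 ± 66.9 and 521 ± 47.4 CPM (SD, n = 3). The 95% confidence interval of its log2 fold change, 0.02, ran from -0.26 to 0.29.

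Cyp3a13 and Cyp3a59 did not overlap between the groups in CPM, though their differences were small. Cyp3a13 had 155, 153 and 145 CPM against 167, 171 and 171 CPM (log2 fold change 0.17, SE 0.09), and its within-group SD of 0.04 lay at percentile 0.690 of all tested genes. Cyp3a59 had 46.3, 36.0 and 41.6 CPM against 50.02, 46.9 and 47.1 CPM (log2 fold change 0.22, SE 0.11). On the TPM scale both genes overlapped.

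Cyp3a41a and Cyp3a41b are near-identical copies: 93.7% and 93.5% of the 50-base windows of their transcripts recur in the other copy. Cyp3a41a had counts of 19, 19 and 13 against 20, 18 and 0, whereas Cyp3a41b had 0 in every library but knockout-labelled replicate 3, where it had 10. Their sums were 19, 19 and 13 against 20, 18 and 10 counts, so the 0 of Cyp3a41a in that library stood beside counts given to its copy. Both are therefore uncertain one by one.

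Among Cyp2j genes, which encode further arachidonic acid epoxygenases, Cyp2j5 at chr4:96627432-96664171 had 788, 556 and 544 CPM in wild type and 621, 534 and 442 CPM in knockout-labelled libraries. They overlapped, and the log2 fold change of -0.24 (SE 0.17) was -0.055 without wild type replicate 1, the highest library. Cyp2j6, at chr4:96516138-96664119, had 84.4, 68.1 and 62.2 CPM against 82.7, 80.3 and 68.5 CPM (log2 fold change 0.11, SE 0.13). The annotated spans of Cyp2j5, Cyp2j6 and Cyp2j9 overlap on one strand, by up to 95691 bases with introns included. Their transcripts had 0.42%, 0.17% and 0% of their 50-base windows in common with other P450 transcripts (Cyp2j6, Cyp2j5 and Cyp2j9), and their counts were whole in all 6 libraries. Cyp2j8 had counts of 4, 0 and 2 in the wild type group and of 0 in each knockout-labelled library, so its few reads too lay in wild type replicates 1 and 3.

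Among the smaller subfamilies, 3 of 7 tested genes had positive and 4 negative log2 fold changes, and none was called. Cyp2f2, at chr7:27119955-27133660, had 1346 ± 132 and 1408 ± 105 CPM (SD, n = 3), and its log2 fold change of 0.06 (95% confidence interval -0.19 to 0.32) turned to -0.02 on library totals. Cyp2r1, at chr7:114550123-114565621, had 17.8 ± 3.24 and 17.0 ± 3.07 CPM (SD, n = 3) and a log2 fold change of -0.07 (SE 0.17). Of the listed AhR-responsive members, Cyp1a1 had counts of 19, 31 and 52 against 31, 25 and 30. Cyp1b1, at chr17:79696282-79715330, had 8, 9 and 10 counts against 14, 12 and 17, without overlap, a log2 fold change of 0.74 (SE 0.35) and an edgeR adjusted p of 0.968; at this depth a difference of a few reads per library sets the value. Among the 10 listed CAR or PXR members, 5 were positive and 5 negative. The counts were 7 and 3 without wild type replicate 1, 3 and 7 without wild type replicate 3, and 2 and 8 on log2(TPM + 1).

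The partners and regulators of these enzymes showed no called gene either. Of 6 redox partners, 3 were positive and 3 negative, with a median log2 fold change of -0.08. The smallest p-values were those of Pgrmc2, a haem-binding membrane protein (67.6 ± 13.6 against 51.5 ± 7.92 CPM, SD, n = 3, log2 fold change -0.39), Cyb5b, a cytochrome b5 of the mitochondrial outer membrane (-0.33), and Cyb5r3, a cytochrome b5 reductase (-0.17). Por, singled out after the values were seen, had 203, 411 and 536 CPM in wild type and 459.6, 447 and 605 CPM in knockout-labelled libraries, with wild type replicate 1 lowest.

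The 11 genes of haem synthesis and breakdown all had positive values (median 0.10), and none was called. The count was 7 of 11 on library totals and 4 of 11 on log2(TPM + 1), where the median was -0.01. The smallest p-values belonged to Cpox (log2 fold change 0.16), Blvrb (0.18) and Alad (0.11), which act in haem synthesis or, for Blvrb, in the reduction of biliverdin. Alas1, the rate-limiting enzyme of the pathway and singled out after its values were seen, had 170.2, 903 and 693 CPM in wild type and 913, 1228 and 435 CPM in knockout-labelled libraries. As for Por, its lowest value was in wild type replicate 1, the library in which Cyp3a11, Cyp2b10, Cyp2b9 and Cyp2c29 were highest.

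Of 16 receptors and liver transcription factors tested, 11 were positive and 5 negative, with a median of 0.04, which was -0.04 on library totals and -0.06 on log2(TPM + 1). Nr1i3, which encodes CAR, had 49.5, 73.0 and 72.4 CPM in wild type and 85.8, 77.1 and 82.7 CPM in knockout-labelled libraries. Its groups did not overlap, and its log2 fold change was 0.33 (SE 0.15, edgeR adjusted p 0.947). The coactivator gene Ncoa1 had a log2 fold change of -0.24. PXR itself (Nr1i2) had 44.4, 60.3 and 77.1 CPM against 68.9, 59.0 and 71.9 CPM.

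Textbook targets of these receptors outside the P450 genes had 2 positive and 10 negative values among 12 tested, with a median of -0.12 and none called. Without wild type replicate 1 they were 5 positive and 7 negative, with a median of -0.05. Abcb1a, a drug efflux pump gene, had 4.195, 4.25 and 4.36 CPM against 3.15, 3.89 and 2.26 CPM, without overlap (log2 fold change -0.46, SE 0.23). The log2 fold change was -0.49 (SE 0.28) for Slco1a4, which encodes an organic anion transporter, and -0.12 for Ugt1a6a, which encodes a glucuronosyltransferase.

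How far these values are specific to each gene depends on shared sequence. Of the 51 members, 39 had at least 1 stretch of 50 bases in common with another P450 transcript of the GENCODE M21 annotation, and 12 had none. Fractional counts, which can arise when RSEM divides reads among genes, occurred in 21 members, all of them among the 39. The share of such windows was 72.1% for Cyp2c40, 40.8% for Cyp2a5, 39.8% for Cyp2d10, 28.3% for Cyp2d9, 14.8% for Cyp3a11, 7.4% for Cyp2c38 and 2.1% for Cyp2c29. Cyp2c38, Cyp2c55 and Cyp2c29 had whole counts in all libraries, whereas all 6 tested Cyp2d genes had fractional counts in at least 1.

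**Figure D5:**
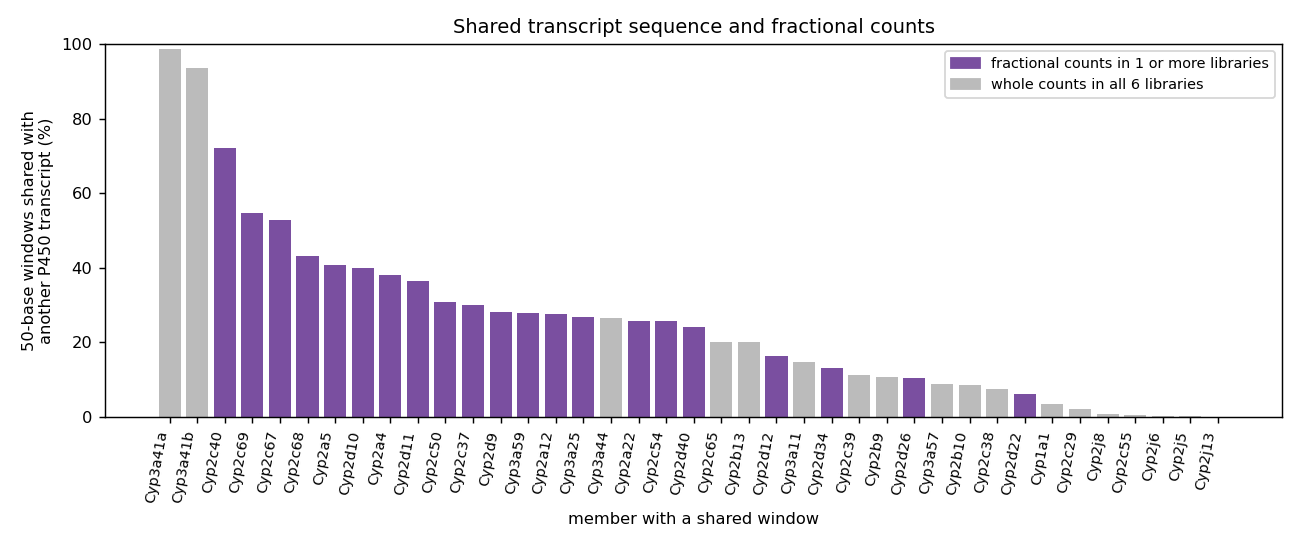
Percent of the 50-base windows of each member's transcripts that recur in another P450 gene, for the 39 members with any; purple bars had fractional counts in at least 1 library and grey bars whole counts in all 6. The Cyp3a41 copies top the plot with whole counts, and Cyp2c40, Cyp2c69, Cyp2c67 and Cyp2c68 follow with fractional counts. The Cyp2d genes, also with fractional counts, range from 6.1% (Cyp2d22) to 39.8% (Cyp2d10).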

How the data were processed

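Per the submitters' processing notes, HISAT, Bowtie2, RSEM and DESeq2 were used; they give no version or setting. The authors deposited expected counts, TPM and FPKM per gene and library, and, per the file headers, a log2 fold change, a p-value and a q-value per gene. Expected counts (92.3% to 92.9% whole) were rounded. Genes were kept by edgeR's filterByExpr (minimum count 10), scaled by TMM (factors 0.955 to 1.05) and compared with edgeR 4.0.16 in R 4.3.3 (robust quasi-likelihood, Benjamini-Hochberg, threshold 0.05). Log2 CPM for spread used a prior count of 2. The biological coefficient of variation was 15.8%. Alternatives were DESeq2 1.42.0, limma 3.58.1 (voom, or trend on log2 TPM or FPKM), other scalings and filters, a replicate block and libraries left out. A count of 0 allows up to 3 counts, for counting error only. The 15 deposited columns of group means and single-library comparisons were not used. Chromosome names and 36 of 51 member starts equal RefSeq on GRCm38.p6, whose coordinates are taken as the build of the table. Steps were tested on simulated data.

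Members and gene lists were chosen with earlier results of these data known. Named members are the 2 with the highest mean TPM in each subfamily and the 6 in each direction with the smallest unadjusted p; for each list, the 3 genes with the smallest p, of which 1 is not reported here. Cell marker lists comprised hepatocyte, intestine, pancreas, bile duct, Kupffer, stellate, endothelial and lymphocyte genes. Pancreas genes summed to 15.8 to 27.5 CPM, bile duct genes to 23.0 to 35.7, endothelial genes to 297 to 371 and lymphocyte genes to 8.22 to 11.7, without separating the groups.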

Additional observations from a re-analysis of the deposited data

How the results depend on the processing

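No member was called under any of the 18 alternatives except 1. With the replicate number as a replicate block, 2 members were called lower, Cyp2c38 and Cyp2c55, each with an edgeR adjusted p of 0.0249, and 34 genes in all (19 higher, 15 lower), against 1 without it; same-numbered libraries had correlations of deviations of 0.28, 0.06 and 0.35, each the highest for its library, and nothing in the labels pairs them. Of all genes, 5 were called without knockout replicate 1 and 0 at a mean of at least 5 CPM or without wild type 1 and 3. DESeq2 called 33 genes. The median log2 fold change of tested members ran from -0.04 to 0.14 with 1 library left out, and from -0.11 to 0.14 over all alternatives. Of the 20 named members, 12 kept their sign throughout. Sign changes, on library totals, log2(TPM + 1), log2(TPM + 0.1) and log2(FPKM + 1) in turn, were -0.058, -0.12, -0.12 and -0.069 for Cyp2a12, -0.017, -0.069, -0.069 and -0.016 for Cyp2f2, and -0.065, -0.12, -0.12 and -0.062 for Cyp3a25; on both TPM scales Cyp2c50 was at -0.0091, and Cyp2j6 at -0.016 and -0.017. With 1 library left out, values ran from -0.10 to 0.16 for Cyp2a12, -0.020 to 0.31 for Cyp2c50, -0.015 to 0.13 for Cyp2f2, -0.23 to 0.071 for Cyp2r1, -0.35 to 0.0045 for Cyp3a11 and -0.078 to 0.091 for Cyp3a25. Without wild type replicates 1 and 3 the signs of Cyp2b9 (0.15), Cyp2f2 (-0.0069), Cyp2r1 (0.16) and Cyp3a11 (0.029) turned; the lone wild type library left is assumed to vary like the others. Depth limits the members below 1 TPM.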
